A study of Mus musculus with 18 samples.

Results

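A set of 9 genes tied to T cell unresponsiveness was followed through all 18 RNA-seq libraries of the series. They were the ubiquitin ligase genes Cblb, Cbl, Itch, Nedd4, Peli1 and Rnf128, the ligase adaptor gene Ndfip1, and the diacylglycerol kinase genes Dgka and Dgkz. These 9 were listed by name and looked up by Ensembl identifier among the 37991 genes counted, of which all 9 were among the 17240 genes tested. The libraries came from spleen CD4 T cells of Tg4-H2u mice, a strain in which a transgenic TCR recognizes an N-terminal peptide of myelin basic protein, so that most T cells share 1 specificity. Male and female mice aged 6 to 12 weeks were used, and the T cells were enriched with beads rather than sorted. Tolerized mice received 7 escalating subcutaneous doses of the high-affinity peptide analog 4Y at intervals of 3 to 4 days, and control mice received PBS. Resting cells were taken 2 h after a last injection of PBS into tolerized (T0) or control (N0) mice. Ag-stimulated cells were taken 2 h after a last injection of 4Y (TAg and NAg). For the PI groups, cells were cultured for 2 h with the phorbol ester PMA and the calcium ionophore A23187, which act downstream of the receptor (TPI and NPI). The resting groups were not cultured, so that the effect of PI and that of culture cannot be told apart. Each of the 6 groups had 3 biological replicates.

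The ligases attach ubiquitin to signaling proteins. Cbl-b and c-Cbl, the products of Cblb and Cbl, are RING ligases that act on receptor-proximal kinases and adaptors, and mice without Cbl-b have T cells that respond without CD28 costimulation. Itch and Nedd4 are HECT ligases that are switched on by Ndfip1, Peli1 encodes a ligase for NF-κB components, and Rnf128 encodes GRAIL, a transmembrane ligase first described in anergic CD4 T cells. DGKα and DGKζ (Dgka and Dgkz) phosphorylate diacylglycerol, the lipid messenger that activates RasGRP1 and protein kinase C and that PMA mimics.

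Total counts ranged from 10758571 to 24119489 per library. The 7 T cell markers examined, none of which was at 0 in any group, summed to normalized counts of 28717 to 29902 in N0, 24890 to 30103 in T0, 15031 to 16706 in NAg, 19496 to 22943 in TAg, 49187 to 54877 in NPI and 54004 to 56963 in TPI. The 7 B cell markers summed to between 315 and 2469 over all libraries, and 1 of them, Ebf1, was at 0 in every library. The 11 neutrophil markers summed to 93.2 to 222 in N0 and 153 to 455 in NAg, against 2115 to 3517 in T0 and 2549 to 4728 in TAg. After PI these sums were 68.8 to 175 in NPI and 437 to 743 in TPI. A list of 4 genes of regulatory T cells (Foxp3, Il2ra, Ikzf2 and Ctla4) summed to 1551 to 3070 in N0, 7531 to 9187 in T0, 28456 to 33941 in NAg, 38472 to 39717 in TAg, 11929 to 13745 in NPI and 52702 to 66140 in TPI. It too moved with tolerization and with both stimuli, and its part in the results was not tested. At an edgeR adjusted p under 0.05, all 4 genes were higher in T0 than in N0 and in TPI than in NPI. Only 2 were higher in TAg than in NAg, 3 in NAg than in N0, 2 in TAg than in T0 and 2 in each PI group than at rest. The sum cannot tell more such cells from more RNA per cell. Reads of Y-linked genes numbered at least 5111 in every NPI and TPI library, in T0 replicates 1 and 2 and in TAg replicate 3, and at most 18 in the others, so that PI treatment of naive cells and sex cannot be told apart. For comparisons in which both groups had libraries of 1 kind, values within that kind are given for some genes and comparisons, not for all.

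Per kb of annotated exon, Dgka had the highest level of the 9 genes in resting naive cells, at 6375 ± 352 normalized counts per kb (SD). The other 8 ranged from 3.08 ± 1.37 for Rnf128 to 1191 ± 116 for Ndfip1, with Cblb at 462 ± 44.7 and Cbl at 886 ± 46.9. After Ag Dgka was down to 463 ± 40.8 per kb in NAg while Cblb stood at 2248 ± 270.3, so that the order of these 2 genes was inverted. The annotated Ndfip1 exons cover only 930 bp, against 2808 bp for Dgka and 6573 bp for Cblb, and the level of Ndfip1 per kb depends on that length.

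**Figure D1:**
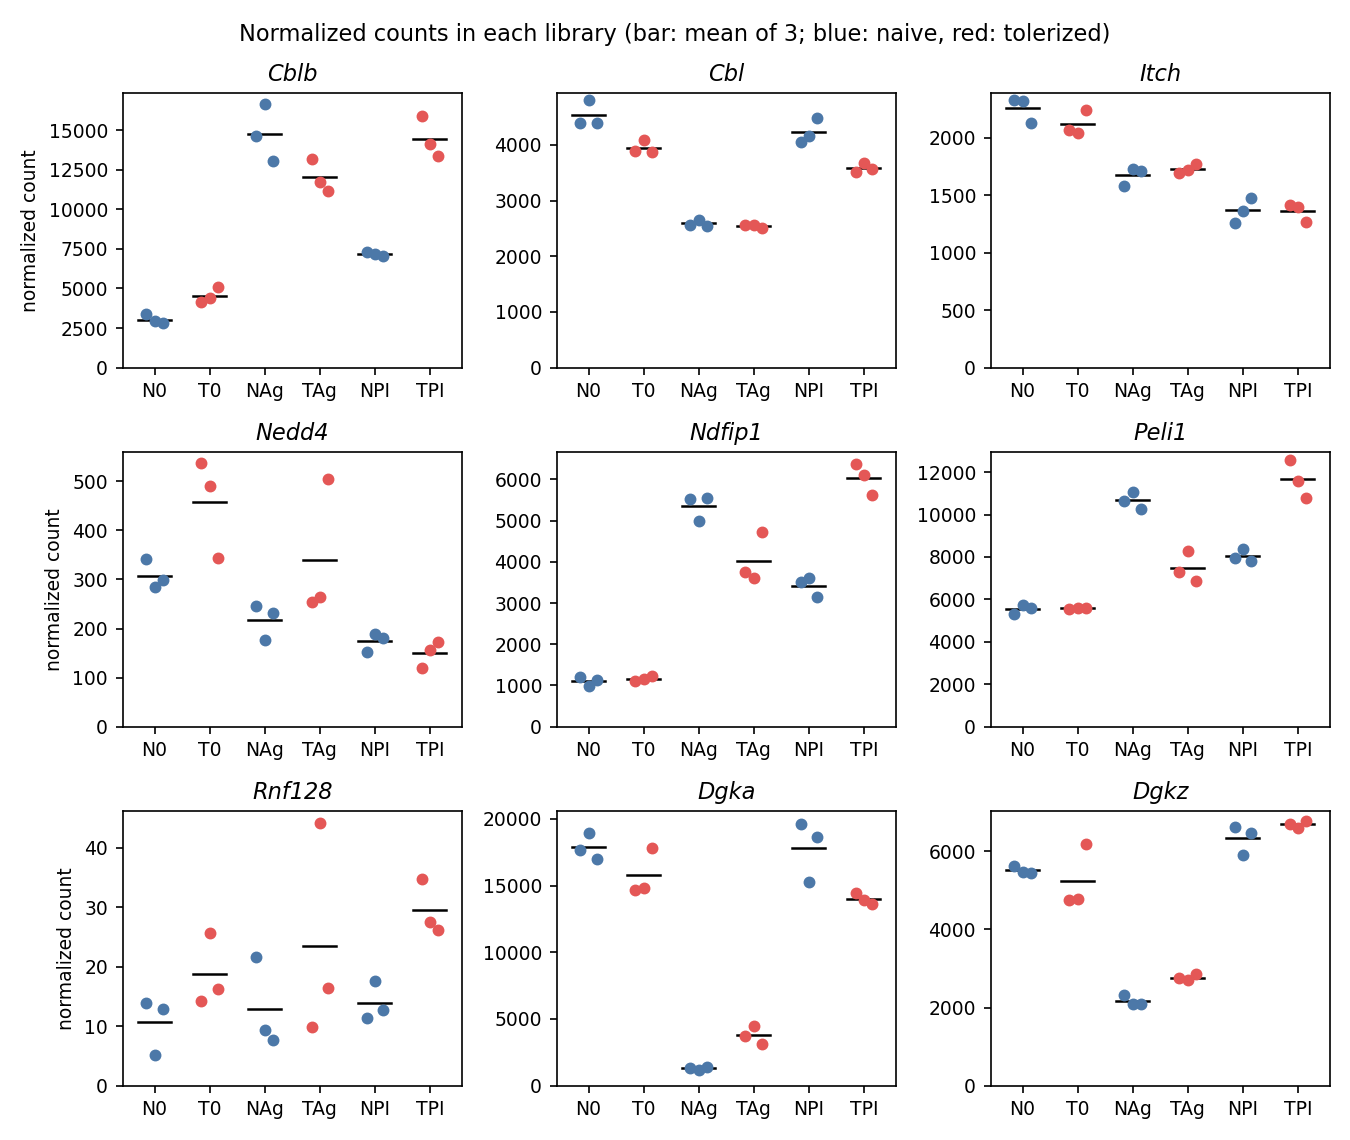
Normalized counts of the 9 genes (y axis, from 0) in each of the 18 libraries (points) by group (x axis), with a bar at the mean of the 3 replicates. Cblb, Ndfip1 and Peli1 were higher in every NAg and TPI library than in any resting library, and Dgka was at 1171 to 1388 in NAg against 17034 to 18977 in N0.

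Normalized counts are raw counts scaled for library size by TMM, and log2 fold changes are given with the SE of the edgeR fit to all libraries. The TMM factors were 1.22 to 1.24 in N0, 1.24 to 1.38 in T0, 0.81 to 0.83 in NPI and 0.74 to 0.78 in TPI. After Ag they were 0.92 to 0.95 in NAg and 1.05 to 1.06 in TAg. The size and sign of changes from rest, above all of small ones with PI, depend on this scaling. Scaling by total count alone was not tested. A gene was called at a Benjamini-Hochberg adjusted p under 0.05 in edgeR's quasi-likelihood test. At rest (T0:N0), 2 of the 9 genes were called, against 20.4% of all genes tested. These were Cblb, which was higher in tolerized cells, and Cbl, which was lower. After Ag (TAg:NAg) 5 of 9 were called (39.4% of all genes), of which Dgka and Dgkz were higher (20.9%) and Cblb, Ndfip1 and Peli1 lower in tolerized cells (18.5%). After PI (TPI:NPI) 5 of 9 were called (37.9%), of which Cblb, Ndfip1 and Peli1 were higher (18.2%) and Cbl and Dgka lower (19.7%).

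The response to Ag involved 7 of 9 genes in naive cells (NAg:N0, 65.5% of all genes) and 7 of 9 in tolerized cells (TAg:T0, 59.8%). In both, Cblb, Ndfip1 and Peli1 rose (32.1% and 29.9% of all genes) and Cbl, Itch, Dgka and Dgkz fell (33.4% and 29.8%). The response to PI involved 6 of 9 in naive cells (NPI:N0, 61.4%) and 7 of 9 in tolerized cells (TPI:T0, 68.3%). In both, Cblb, Ndfip1, Peli1 and Dgkz rose (28.6% and 32.0%) and Itch and Nedd4 fell, joined by Cbl in tolerized cells (32.7% and 36.3%). The response to Ag differed between the cell states by the interaction test for 5 of 9 genes (21.7%), upward for 2 (14.6%) and downward for 3 (7.09%). That to PI differed for 3 of 9 (20.2%), upward for 3 (12.7%) and downward for none of the 9 (7.52%).

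With a fold change of at least 2 and a mean above 50 as further conditions, 4 of 9 genes remained in NAg:N0 (30.3% of all genes), 3 in TAg:T0 (23.4%), 2 in NPI:N0 (20.3%) and 4 in TPI:T0 (27.1%). Between tolerized and naive cells it was 0 of 9 at rest (3.25%), where 3 of 9 had an unadjusted edgeR p under 0.05 and DESeq2 called 2, then 1 after Ag (5.66%) and 1 after PI (5.60%). The interaction with Ag passed for 1 (5.27%) and that with PI for 0 (3.21%), where 4 of 9 had an unadjusted edgeR p under 0.05 and DESeq2 called 3. With 9 genes these shares are a description, and the values of the single genes follow.

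**Figure D2:**
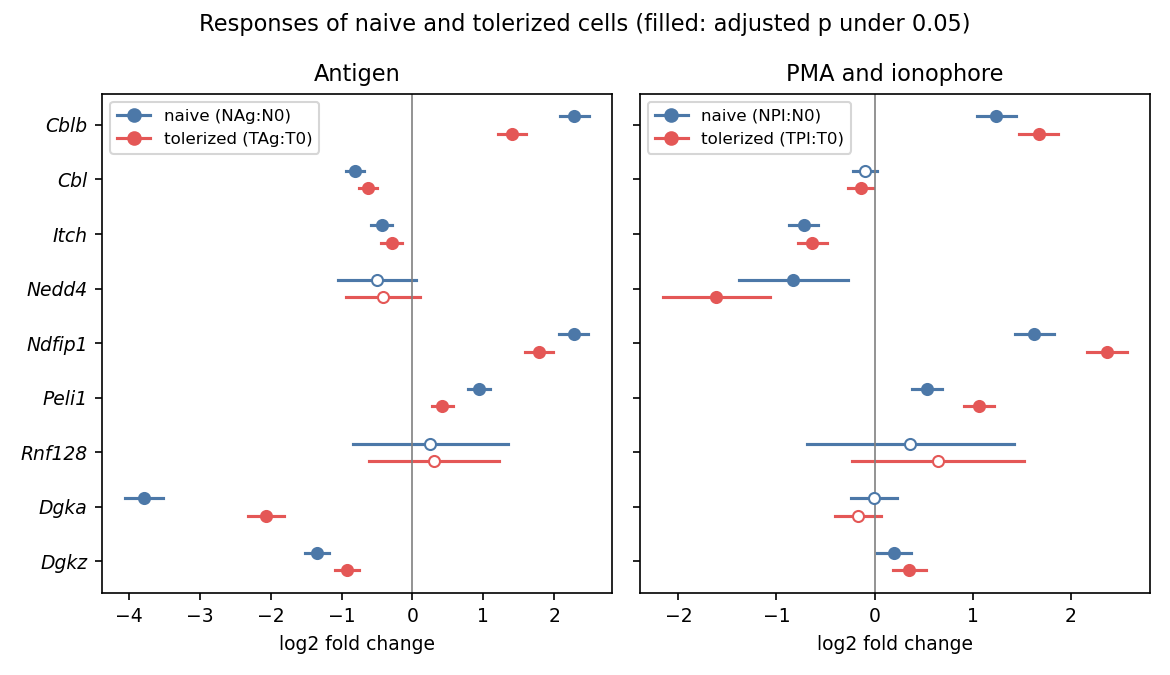
Log2 fold changes (x axis) with 95% confidence intervals for the response to Ag (left) and to PI (right) of naive (blue) and tolerized (red) cells; filled points had an adjusted p under 0.05. With Ag Dgka lies at -3.78 and -2.07 and with PI at -0.0036 and -0.17, whereas Cblb, Ndfip1 and Peli1 rose with both.

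Cblb and Peli1 moved alike across the groups (r = 0.89), as did Dgka and Dgkz (r = 0.95). Cbl and Dgka did so too (r = 0.91), but the sequence of Cbl is not shown. The 150 bases before the first listed start (RefSeq, GRCm38.p6) of Cblb, Peli1, Dgka and Dgkz are shown as examples. Read 5′ to 3′ on the strand of the gene, with capitals for the core NFAT motif GGAAA or the GC box GGGCGG on either strand, they were as follows.
Cblb chr16:52031399-52031548, plus strand: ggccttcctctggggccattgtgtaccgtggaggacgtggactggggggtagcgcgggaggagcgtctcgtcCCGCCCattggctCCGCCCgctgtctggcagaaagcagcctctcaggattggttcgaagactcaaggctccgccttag
Peli1 chr11:21091174-21091323, plus strand: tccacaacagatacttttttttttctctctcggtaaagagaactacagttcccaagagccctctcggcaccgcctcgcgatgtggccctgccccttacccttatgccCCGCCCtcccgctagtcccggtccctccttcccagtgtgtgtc
Dgka chr10:128745085-128745234, minus strand: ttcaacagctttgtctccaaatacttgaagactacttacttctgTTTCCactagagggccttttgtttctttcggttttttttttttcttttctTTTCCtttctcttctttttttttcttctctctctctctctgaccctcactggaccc
Dgkz chr2:91963564-91963713, minus strand: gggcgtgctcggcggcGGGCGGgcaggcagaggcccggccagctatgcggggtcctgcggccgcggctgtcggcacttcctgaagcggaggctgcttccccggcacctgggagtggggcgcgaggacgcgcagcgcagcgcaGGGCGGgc
For 7 of the 9 genes the RefSeq table held such a sequence, and Itch and Ndfip1 had none. A GC box lay in 6 of these 7 windows (28.6% of 32851 windows of this length in all genes) and not in that of Dgka. The Dgka window had 37.3% GC and 1 CpG, where the median over all windows was 54% and 4, and the windows of Cblb, Peli1 and Dgkz had 64.7%, 57.3% and 78.7% GC. The core GGAAA was found for Cbl, Dgka and Rnf128 (37.6% of all windows), and an EGR motif, GCGGGGGCG, which may overlap a GC box, for Cbl and Nedd4 (2.09%). No window held the AP-1 motif TGANTCA (4.24% of all windows), the CRE TGACGTCA (1.36%), the FOXO motif GTAAACA (1.80%), the EGR motif GCGTGGGCG (0.426%) or the NF-κB motif (4.60%). Dgka has 4 starts in this table and Dgkz 2, of which only the first was searched.

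Cblb (ENSMUSG00000022637, chr16:52031662-52208160, plus strand, mm9 as for all genes) rose under both stimuli in both cell states. It had normalized counts of 3362, 2956 and 2792 in N0 and 14653, 16615 and 13068 in NAg, a rise of 4.87-fold (log2 fold change 2.28 ± 0.10, adjusted p = 4.33e-16). In tolerized cells they went from 4130, 4402 and 5075 in T0 to 13153, 11712 and 11162 in TAg, a rise of 2.65-fold (1.40 ± 0.10, adjusted p = 4.58e-12). The resting level was thus already 1.49-fold higher in T0 than in N0, with no overlap between replicates (0.58 ± 0.10, adjusted p = 0.000156), and it was also higher in the 1 T0 library without Y-linked reads (0.74, adjusted p = 0.00670). With the erythroid and myeloid marker scores of each library as covariates, this difference was 0.79 and was not called (adjusted p = 0.176). The myeloid score was 4.31 to 4.66 in N0 and 6.34 to 6.75 in T0, so that this fit cannot separate score from group. All 11 neutrophil markers were likewise called higher in T0. Of 9 macrophage and monocyte markers 1 was called higher and 0 lower in T0, with sums of 610 to 828 in N0 and 1373 to 1744 in T0. In TAg 1 of these 9 was higher and 6 were lower than in NAg. In bulk RNA fewer cells that express a gene and less RNA per cell cannot be told apart.

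The rise of Cblb with Ag was smaller in tolerized cells (interaction -0.88 ± 0.14 on the log2 scale, adjusted p = 4.25e-05). After Ag the level in TAg was 1.23-fold lower than in NAg (-0.30 ± 0.10, adjusted p = 0.0146), but the replicates overlapped, and the difference was not called without NAg replicate 2 (-0.21, adjusted p = 0.120), without TAg replicate 3 (-0.25, adjusted p = 0.0724), in libraries without Y-linked reads (-0.25, adjusted p = 0.0982) or with the marker scores (-0.18, adjusted p = 0.511). PI gave 7272, 7205 and 7058 in NPI and 15876, 14106 and 13348 in TPI. Here the order was the opposite one, and every TPI library was far above every NPI library. The level in TPI was 2.01-fold that in NPI (1.01 ± 0.10, adjusted p = 1.43e-08). The rise with PI was larger in tolerized cells by 0.43 ± 0.14 (adjusted p = 0.0255), a difference not called without N0 replicate 1, NPI replicate 3, T0 replicate 1 or TPI replicate 1 (0.37 to 0.42, adjusted p = 0.0570 to 0.0618), without both T0 replicate 1 and TAg replicate 3 (0.37, adjusted p = 0.0713), with the marker scores (0.39, adjusted p = 0.0693) or with Y-linked read status as a covariate (0.30, adjusted p = 0.149). Over the 6 groups Cblb was highest in NAg (14779 ± 1777) and TPI (14443 ± 1298), which did not differ beyond their spread (adjusted p = 0.774), followed by TAg (12009 ± 1028), NPI (7178 ± 109), T0 (4535 ± 486) and N0 (3037 ± 294), each called against its neighbor.

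Cbl (ENSMUSG00000034342, chr9:43957345-44042129, minus strand) went the other way with Ag. The normalized counts were 4399, 4808 and 4387 in N0 and 2561, 2655 and 2552 in NAg, a fall of 1.75-fold (-0.81 ± 0.06, adjusted p = 1.80e-11). In tolerized cells they fell from 3896, 4096 and 3869 to 2569, 2568 and 2508 (-0.63 ± 0.06, adjusted p = 2.15e-09). Both Ag-stimulated groups ended at the same level within their spread (-0.02, 95% confidence interval -0.15 to 0.10), and the interaction of 0.17 ± 0.09 was not called (adjusted p = 0.168). At rest Cbl was 1.15-fold lower in T0 (-0.20 ± 0.06, adjusted p = 0.0233), a difference not called without N0 replicate 2 (adjusted p = 0.113), without T0 replicate 1 (0.0657) or in libraries without Y-linked reads (0.174). It was called in only 3 of 9 other settings, and adjusted p was 0.0565 with no filter, 0.0798 with N0 and T0 fitted alone, 0.0807 without the erythroid-rich T0 replicate 1 and TAg replicate 3, 0.0937 with Y-linked read status as a covariate and 0.815 with the marker scores. After PI it was 4052, 4165 and 4487 in NPI and 3519, 3678 and 3562 in TPI, which was 1.18-fold lower (-0.24 ± 0.06, adjusted p = 0.00274), a difference not called with the marker scores (-0.19, adjusted p = 0.306). The response of naive cells to PI was not called (-0.10 ± 0.06, adjusted p = 0.169), and that of tolerized cells was small (-0.14 ± 0.06, adjusted p = 0.0436) and was not called without T0 replicate 2 or any 1 of the TPI replicates (-0.16 to -0.11). It was also called in only 1 of 9 other settings, for example not by DESeq2 (adjusted p = 0.0862).

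Itch (ENSMUSG00000027598, chr2:154959245-155052591, plus strand), the HECT ligase, fell modestly with every stimulus. Its normalized counts lay between 2039 and 2332 in the resting libraries, between 1581 and 1768 after Ag and between 1262 and 1480 after PI, and these 3 ranges did not overlap. With Ag it was 1.35-fold lower in naive cells (-0.43 ± 0.07, adjusted p = 7.92e-06) and 1.22-fold lower in tolerized cells (-0.29 ± 0.07, adjusted p = 0.000916). PI gave falls of 1.65-fold (-0.72 ± 0.07, adjusted p = 3.98e-09) and 1.55-fold (-0.64 ± 0.07, adjusted p = 2.37e-08). Among libraries with Y-linked reads the fall with Ag in tolerized cells was -0.22 and was not called (adjusted p = 0.0911). No difference between tolerized and naive cells was called for Itch, and the intervals were narrow, from -0.24 to 0.05 at rest, from -0.10 to 0.19 after Ag and from -0.15 to 0.14 after PI.

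Nedd4 (ENSMUSG00000032216, chr9:72510364-72597649, plus strand), the founding member of the same family, had 58.4 normalized counts per kb in N0 against 232 for Itch and varied more between replicates. Its normalized counts were 341, 284 and 300 in N0, 538, 491 and 343 in T0, 246, 176 and 232 in NAg and 253, 265 and 504 in TAg. The T0 and TAg libraries that were high were those with Y-linked reads, and 2 of them, T0 replicate 1 and TAg replicate 3, also had the highest erythroid marker scores of all libraries (7.09 and 6.63, against at most 4.62 in the others). Neither T0:N0 (0.57 ± 0.24, adjusted p = 0.118) nor TAg:NAg (0.65 ± 0.26, adjusted p = 0.0583) was called, although the former was without T0 replicate 3 (0.73, adjusted p = 0.0485) and the latter without TAg replicate 1 (0.82, adjusted p = 0.0243) or 2 (0.80, adjusted p = 0.0332). Each was also called in 1 of 9 other settings. T0:N0 was called with N0 and T0 fitted alone (0.57, adjusted p = 0.0373) and TAg:NAg by DESeq2 (0.61, adjusted p = 0.0255). In libraries without Y-linked reads these differences were 0.16 and 0.25, and with the marker scores as covariates -0.39 and 0.07. With Ag in naive cells the replicates did not overlap and the change was -0.50 ± 0.26 (adjusted p = 0.101). It was called in 4 of 8 other settings, among libraries without Y-linked reads (-0.50, adjusted p = 0.00355), with N0 and NAg fitted alone (-0.50, adjusted p = 0.00679), with Y-linked read status as a covariate (-0.50, adjusted p = 0.00273) and with the marker scores (-0.84, adjusted p = 0.00248). In tolerized cells it was -0.42 ± 0.24 (adjusted p = 0.153), and without TAg replicate 3 it was -0.82 and was called (adjusted p = 0.000677). The part of erythroid RNA in the level of Nedd4 was not tested beyond these values.

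**Figure D3:**
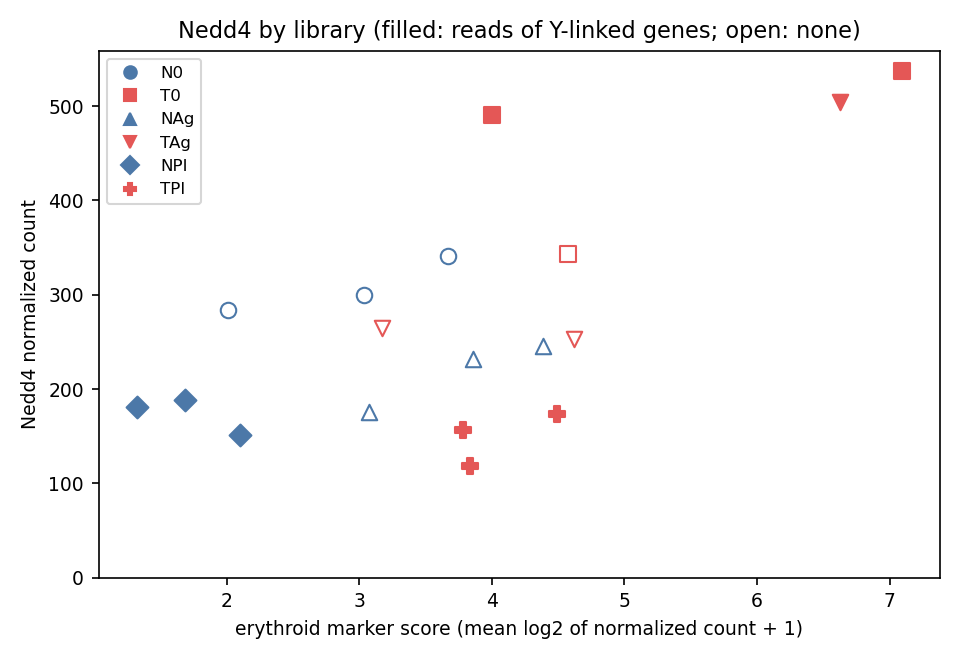
Nedd4 normalized counts (y axis) against the erythroid marker score (x axis, mean log2 of normalized count + 1 over 7 genes) in the 18 libraries, with symbols by group and filled symbols for libraries with Y-linked reads. T0 replicate 1 and TAg replicate 3 lie at the upper right, with 538 and 504 counts at scores of 7.09 and 6.63, while the PI libraries lie between 119 and 188.

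After PI Nedd4 was at 152, 188 and 181 in NPI and 119, 157 and 174 in TPI, below every resting library. The fall was 1.77-fold in naive cells (-0.83 ± 0.26, adjusted p = 0.0119), where it was not called without NPI replicate 1 (-0.74, adjusted p = 0.0548) or with the marker scores (-0.10, adjusted p = 0.879). In tolerized cells it was 3.06-fold (-1.61 ± 0.25, adjusted p = 4.89e-05) and -1.78 on the log2 scale among libraries with Y-linked reads alone, but -0.74 with the marker scores (adjusted p = 0.292).

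Ndfip1 (ENSMUSG00000024425, chr18:38578629-38624053, plus strand), the activator of Itch and Nedd4, rose strongly while both ligase genes did not. Its normalized counts were 1195, 988 and 1141 in N0 and 1111, 1155 and 1239 in T0, which did not differ beyond their spread (0.08 ± 0.10, adjusted p = 0.632). After Ag they were 5528, 4990 and 5537 in NAg and 3742, 3608 and 4732 in TAg, so that every TAg library was below every NAg library. The rises were 4.83-fold in naive cells (2.27 ± 0.10, adjusted p = 3.14e-16) and 3.45-fold in tolerized cells (1.79 ± 0.10, adjusted p = 3.97e-14), and the latter was smaller (interaction -0.49 ± 0.13, adjusted p = 0.00960, and -0.37 with the marker scores, adjusted p = 0.0691). In libraries without Y-linked reads the interaction was -0.70 (adjusted p = 0.00484), TAg:NAg was -0.54 (adjusted p = 0.000285) and TAg:T0 1.57, and among those with such reads TAg:T0 was 2.06. With PI the counts were 3520, 3607 and 3138 in NPI and 6382, 6096 and 5618 in TPI. This was 1.76-fold more in TPI than in NPI (0.82 ± 0.09, adjusted p = 1.88e-07), and the rise from rest was larger in tolerized cells by 0.74 ± 0.13 (adjusted p = 0.000231). TPI and NAg, the 2 highest groups, were not called different (adjusted p = 0.102).

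Peli1 (ENSMUSG00000020134, chr11:20991294-21050326, plus strand) moved the same way on a smaller scale, from a level that was the same at rest within the spread. At rest it stood at 5315, 5747 and 5610 in N0 and 5543, 5616 and 5593 normalized counts in T0 (0.01 ± 0.07, 95% confidence interval -0.14 to 0.16). Ag brought it to 10660, 11084 and 10258 in NAg and only to 7309, 8260 and 6867 in TAg. The rises were 1.92-fold (0.94 ± 0.07, adjusted p = 3.19e-11) and 1.34-fold (0.42 ± 0.07, adjusted p = 2.09e-05), and the rise in tolerized cells was the smaller one (interaction -0.52 ± 0.10, adjusted p = 0.000683). In libraries without Y-linked reads the interaction was -0.46 (adjusted p = 0.0251), TAg:NAg was -0.45 (adjusted p = 0.000469) and TAg:T0 0.48, and among those with such reads TAg:T0 was 0.30. PI brought it to 7963, 8365 and 7805 in NPI and to 12562, 11603 and 10792 in TPI, which was 1.45-fold higher (0.53 ± 0.07, adjusted p = 2.88e-06). The rise with PI was larger in tolerized cells by 0.53 ± 0.10 (adjusted p = 0.000608). A pseudogene with 241 to 1018 reads lies inside the introns of Peli1 on the same strand and shares no exonic base with it.

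For Cblb, Ndfip1 and Peli1 the sign of the difference between tolerized and naive cells therefore depended on the stimulus. For Cblb the difference after Ag was the weaker side, with overlapping replicates and a call lost in some alternatives, as given above. The difference after PI minus that after Ag, a contrast chosen after these values were seen, was 1.31 ± 0.14 for Cblb (adjusted p = 4.72e-08), 1.23 ± 0.13 for Ndfip1 (adjusted p = 7.22e-08) and 1.05 ± 0.10 for Peli1 (adjusted p = 2.38e-08). It was -1.88 ± 0.16 for Dgka (adjusted p = 1.77e-08), and these 4 of 9 genes were called, where 37.2% of all genes were (17.2% upward and 20.0% downward). All 4 also had a size of at least 2-fold with a mean above 50 (11.9%). The PI libraries all came with Y-linked reads and the NAg libraries with none, so that within this contrast sex and stimulus cannot be told apart for naive cells.

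**Figure D4:**
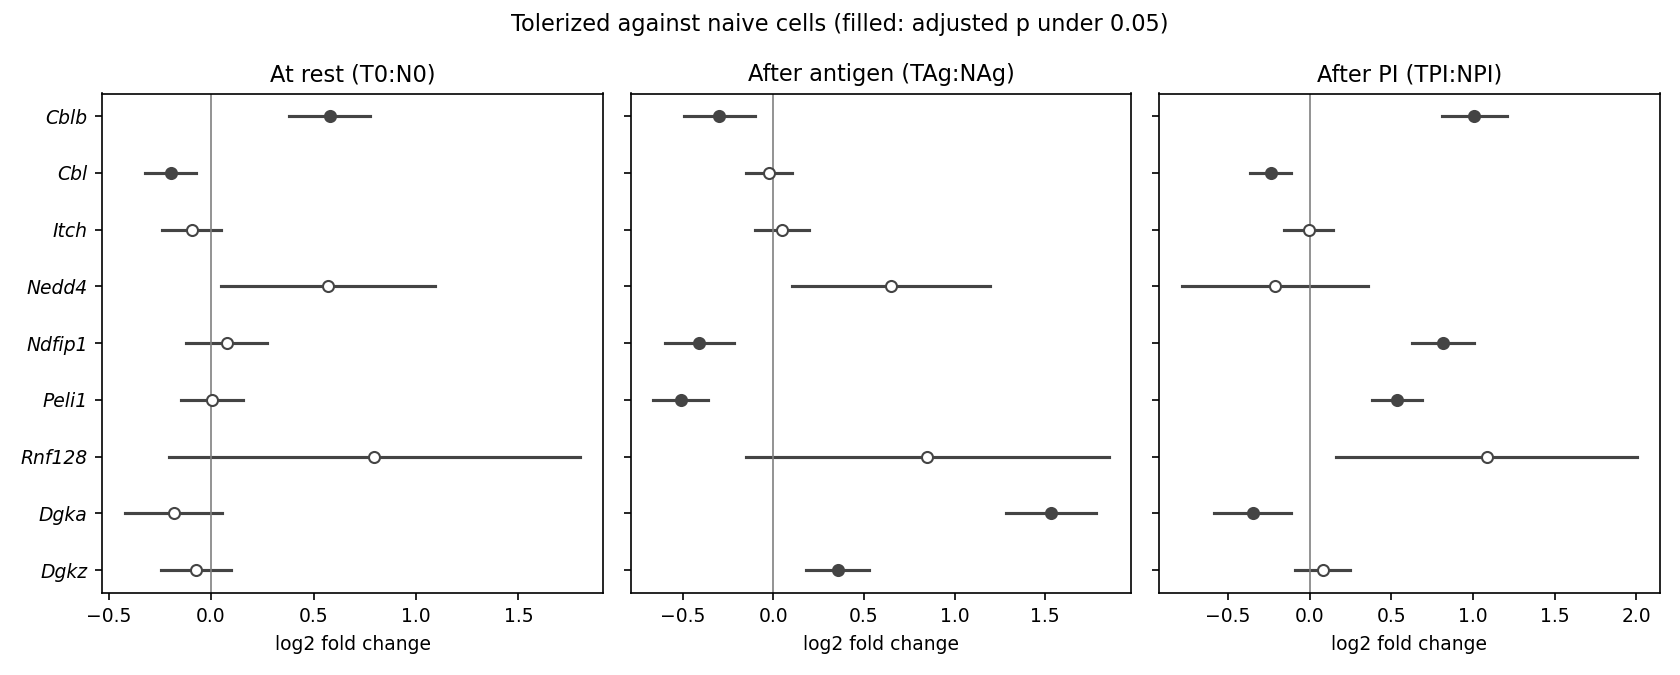
Log2 fold changes of tolerized against naive cells (x axis) with 95% confidence intervals at rest, after Ag and after PI; filled points had an adjusted p under 0.05. Cblb, Ndfip1 and Peli1 lie to the left of 0 after Ag (-0.30, -0.41 and -0.51) and to the right of 0 after PI (1.01, 0.82 and 0.53), and Dgka lies at 1.53 after Ag and at -0.35 after PI. After Ag the Cblb replicates of TAg and NAg overlapped.

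Rnf128 (ENSMUSG00000031438, chrX:136097855-136207684, plus strand), the gene of GRAIL, was near the limit of detection in these cells. It had 5 to 43 raw reads per library, and its normalized counts were 13.9, 5.2 and 12.9 in N0, 14.2, 25.6 and 16.3 in T0, 21.6, 9.4 and 7.7 in NAg, 9.9, 44.1 and 16.4 in TAg, 11.4, 17.6 and 12.7 in NPI and 34.7, 27.4 and 26.1 in TPI. It was not called in any of the 7 comparisons of 1 stimulus or 1 cell state. Of the other pairs of groups, it was called in TPI:N0 (2.73-fold higher, adjusted p = 0.00816) and in TPI:NAg (2.29-fold higher, adjusted p = 0.0269). TAg:NAg (0.85 ± 0.48, adjusted p = 0.174) was called without NAg replicate 1 (1.43, adjusted p = 0.0426). Of the 7, the closest was TPI:NPI, where the replicates did not overlap and TPI was 2.12-fold higher (1.08 ± 0.44, adjusted p = 0.0593). This difference was called in 3 of 8 other settings. With NPI and TPI fitted alone it was 1.09 (adjusted p = 0.00332) and among libraries with Y-linked reads 1.09 (adjusted p = 0.00544). With no filter on low counts it was 1.08 (adjusted p = 0.0488). It was not called with the marker scores (0.68, adjusted p = 0.667). At rest T0:N0 was 0.80 ± 0.48 (adjusted p = 0.269), with an interval from -0.21 to 1.80.

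Dgka (ENSMUSG00000025357, chr10:128157197-128181112, minus strand), the gene of DGKα, had the largest change of the 9. Its normalized counts were 17691, 18977 and 17034 in N0 and 14668, 14792 and 17845 in T0, which overlapped (-0.18 ± 0.11, adjusted p = 0.284). In naive cells Ag left 1344, 1171 and 1388, a fall of 13.8-fold (-3.78 ± 0.13, adjusted p = 2.09e-16). In tolerized cells it left 3719, 4484 and 3104, a fall of 4.18-fold (-2.07 ± 0.12, adjusted p = 2.37e-12). Every TAg library was thus above every NAg library. The fall was smaller in tolerized cells by 1.72 ± 0.16 (interaction, adjusted p = 2.86e-07), and TAg was 2.90-fold above NAg (1.53 ± 0.12, adjusted p = 4.81e-09). Among libraries without Y-linked reads these values were 1.66 and 1.66, and with the marker scores 1.65 and 1.51, and both were called in every fit that left out 1 library. Of the 7 T cell markers, 6 were lower in NAg than in N0, 5 were higher in TAg than in NAg and 6 were called upward in the interaction with Ag, as Dgka and Dgkz were, and their part in these differences was not tested.

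With PI the change of Dgka was not called in either cell state. The counts were 19639, 15287 and 18641 in NPI (-0.0036 ± 0.11 against N0, 95% confidence interval -0.24 to 0.23) and 14454, 13952 and 13629 in TPI (-0.17 ± 0.11 against T0, -0.41 to 0.07). With Y-linked read status as a covariate the former was 0.33 and was called (adjusted p = 0.0325), and the latter was -0.05 (adjusted p = 0.630). TPI was 1.27-fold below NPI (-0.35 ± 0.11, adjusted p = 0.0191), which was not called without NPI replicate 1 or 3 or TPI replicate 2 or 3 (-0.35 to -0.27) or with the marker scores (-0.27, adjusted p = 0.437). The exons of Dgka share 98 bp with Pmel on the opposite strand, which had at most 8 reads in any library.

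Dgkz (ENSMUSG00000040479, chr2:91772981-91816021, minus strand), the gene of DGKζ, changed in the same direction with Ag on a smaller scale. Its normalized counts went from 5636, 5478 and 5436 in N0 to 2317, 2100.5 and 2081 in NAg, a fall of 2.55-fold (-1.35 ± 0.08, adjusted p = 3.95e-13). In tolerized cells they went from 4750, 4776 and 6200 in T0 to 2748, 2703 and 2856 in TAg, a fall of 1.89-fold (-0.92 ± 0.08, adjusted p = 6.21e-10). This fall was -1.19 in libraries without Y-linked reads and -0.74 among those with them. TAg was 1.28-fold above NAg without overlap (0.35 ± 0.08, adjusted p = 0.00152; 0.33, adjusted p = 0.00261, in libraries without Y-linked reads), but it was not called with the marker scores (0.25, adjusted p = 0.270). The interaction of 0.43 ± 0.12 was called (adjusted p = 0.00969), but it was 0.16 (adjusted p = 0.434) in libraries without Y-linked reads, where T0 replicate 3, the highest of its group, was the only resting tolerized library, and 0.34 (adjusted p = 0.0658) without T0 replicate 1 and TAg replicate 3. With PI the counts were 6618, 5903 and 6477 in NPI and 6706, 6588 and 6786 in TPI, small rises of 0.20 ± 0.08 (adjusted p = 0.0386) and 0.35 ± 0.08 (adjusted p = 0.000529). The direction of changes of this size depends on the TMM factors, which were lower in the PI libraries than in the resting ones. The rise in naive cells was not called without any 1 of the N0 replicates or NPI replicate 1 or 3 (0.14 to 0.18). With the marker scores neither rise was called (0.35, adjusted p = 0.154, in naive and 0.56, adjusted p = 0.0762, in tolerized cells). TPI and NPI did not differ beyond their spread (0.08, -0.09 to 0.25). The exons of Dgkz share 220 bp with Gm9821 on the opposite strand, which had at most 3 reads.

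Across the 18 libraries, which share their groups, Dgka and Dgkz had a correlation of 0.95 on the log2 scale, Cblb and Ndfip1 of 0.95 and Ndfip1 and Peli1 of 0.92, while Cblb and Dgka had -0.64. The genes whose profile was most like that of Cblb, among genes with a mean of at least 50, were Hif1a (r = 0.99), Arid5b (0.98) and Tbx21 (0.98). For Dgka they were Ctdsp2 (0.996), 4833420G17Rik (0.993) and Fgd3 (0.992). For Ndfip1 they were Slc7a1, Zc3h15 and Etf1 (0.99 each), and for Peli1 Aig1, Cdk17 and Map3k5 (0.97 to 0.98).

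The counts of the gene lists are to be read beside the shares of all genes, of which 32.1% rose and 33.4% fell in NAg:N0 and 29.9% rose and 29.8% fell in TAg:T0. Of 6 other diacylglycerol kinases tested, 1 rose and 2 fell in NAg:N0 (median -0.34, all genes 0.00), led by Dgkh (2.09 ± 0.12) and Dgkq (-1.08 ± 0.09), and 1 rose and 2 fell in TAg:T0 (median 0.21, all genes -0.05). Dgkg was scarce, at 10.9 to 18.8 normalized counts in N0 and 55.6 to 84.0 in T0, and was higher in tolerized cells at rest (2.20 ± 0.27, adjusted p = 4.47e-06), after Ag (3.25 ± 0.29) and after PI (1.26 ± 0.26). Among 12 genes that make diacylglycerol or respond to it, 3 rose and 5 fell in NAg:N0 and 2 rose and 5 fell in TAg:T0 (medians -0.25 and -0.34). Plcg1, the phospholipase that produces it in T cells, changed by -1.84 ± 0.08 in naive and -1.77 ± 0.08 in tolerized cells, and Rasgrp2, an exchange factor of the RasGRP family, by -4.45 ± 0.18 and -3.64 ± 0.17. Rasgrp1, the exchange factor recruited by diacylglycerol, was lower in T0 than in N0 (-0.57 ± 0.08, adjusted p = 3.29e-05) and higher in TPI than in NPI (0.70 ± 0.08, adjusted p = 3.77e-07), and its rise with PI was larger in tolerized cells by 1.27 ± 0.12 (adjusted p = 5.33e-08).

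Among the relatives of the HECT ligases, 5 of 6 tested fell with Ag in naive and 5 in tolerized cells (33.4% and 29.8% of all genes, medians -1.37 and -0.86, all genes 0.00 and -0.05). Nedd4l led in naive cells (-1.89 ± 0.10) and Wwp1 in tolerized cells (-1.26 ± 0.10). With PI in naive cells 4 of the 6 rose and 1 fell (28.6% and 32.7% of all genes). Of 10 relatives and partners of the CBL ligases, 4 rose and 5 fell in each response to Ag (medians -0.05 and -0.08). Sla, which encodes an adaptor that brings c-Cbl to the TCR, rose in naive cells (2.23 ± 0.09), and fell in tolerized cells (-0.27 ± 0.09, interaction -2.50 ± 0.12, adjusted p = 1.50e-12), with 13018 to 13768 normalized counts in NAg and 3328 to 3827 in TAg. After PI it was higher in TPI than in NPI (1.16 ± 0.09), the same pair of signs as for Cblb. Ubash3b, which encodes the phosphatase Sts-1, rose with Ag in naive cells (2.86 ± 0.14), and its relative Ubash3a fell (-1.87 ± 0.10). Sla2, an adaptor of the same family as Sla, fell by 3.39 on the log2 scale in naive and by 3.70 in tolerized cells.

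Of 7 tested relatives of GRAIL and its deubiquitinases, 2 rose and 4 fell in NAg:N0 and 2 rose and 5 fell in TAg:T0 (medians -1.15 and -0.95). Rnf149, a transmembrane ligase of that family, rose with Ag in naive cells (3.23 ± 0.11), less so in tolerized cells (interaction -1.14 ± 0.15, adjusted p = 6.68e-06), and it was higher in TPI than in NPI (1.59 ± 0.10). Of 9 other ligases and adaptors tied to unresponsiveness, 5 rose and 1 fell in each response to Ag (medians 0.33 and 0.19). The 5 that rose are not named here. The 1 that fell was Dtx1, a Deltex ligase, which fell by 4.63 on the log2 scale in naive cells and by 3.30 in tolerized cells, a difference of 1.34 ± 0.17 (adjusted p = 9.83e-06). Its normalized counts were 4205 to 4945 in N0, 2798 to 3228 in T0, 140 to 201 in NAg and 283 to 313 in TAg.

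Of 14 known substrates of these ligases, 6 rose and 6 fell in NAg:N0 (32.1% and 33.4% of all genes) and 5 rose and 4 fell in TAg:T0 (29.9% and 29.8%, medians -0.08 and 0.03). In TAg 1 was higher and 6 were lower than in NAg (20.9% and 18.5% of all genes). The CD40 ligand gene Cd40lg was lower in TAg than in NAg (-4.82 ± 0.17), and so was the NF-κB subunit gene Rel (-1.32 ± 0.09). Of 6 transcription factors tied to anergy genes, 4 rose and 2 fell with Ag in either state (medians 1.34 and 0.98). Nfatc1, which encodes NFATc1, rose by 2.22 ± 0.10 in naive and 1.59 ± 0.09 in tolerized cells and was higher in T0 than in N0 (0.49 ± 0.09) and in TPI than in NPI (1.48 ± 0.09), while TAg:NAg was not called (-0.14 ± 0.09, adjusted p = 0.254). Nfatc2 fell in naive cells (-2.56 ± 0.11) and was higher in TAg than in NAg (0.99 ± 0.11), and Foxo1 was lower in TAg (-0.96 ± 0.09). With PI 4 rose and 1 fell in naive cells (28.6% and 32.7% of all genes) and 4 rose and 2 fell in tolerized cells (32.0% and 36.3%).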

How the data were processed

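RNA was measured in 18 libraries of spleen CD4 T cells, 6 groups of 3, after rRNA depletion and paired-end sequencing. The deposited values are raw counts per Ensembl gene, which the authors made with HTSeq 0.9.1 from TopHat2 2.1.1 alignments to mm9 (submitters' processing notes, which also name DESeq2 1.18 and edgeR 3.24). The strand and overlap settings of HTSeq are not given in the sources used here. From these counts, 17240 of 37991 genes were kept, namely those whose mean normalized count reached 3 in any group. They were tested in R 4.3.3 with edgeR 4.0.16 (TMM, robust quasi-likelihood F test, all 18 libraries in the fit, Benjamini-Hochberg adjustment over all genes tested). DESeq2 1.42.0 was an alternative. Errors of fold changes are SE and those of levels SD over 3 replicates. The confidence intervals are not adjusted for multiple tests. On data simulated for T0:N0 over 17240 genes, 185 of 200 genes changed by 1 on the log2 scale were recovered, with 14 false calls. The T0:N0 changes of Cblb (0.58), Cbl (-0.20) and Rnf128 (0.80) were smaller than the simulated one. The recovery of such smaller changes was not tested, so that this share does not apply to them.

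The 9 genes and the lists were chosen with earlier results of these data known. Genes of a list were chosen for naming as the called gene with the smallest adjusted p in each direction (up to 2 in lists of more than 8 tested genes). Not every direction has a named gene, so that the named genes do not stand for their list. For likeness the 3 genes with the highest Pearson correlation of log2 normalized counts among 10361 genes with a mean of at least 50 were named. Marker scores were means of log2(normalized count + 1). The myeloid score did not overlap between tolerized and naive libraries at rest, after Ag or after PI, nor between resting and PI libraries of either cell state. A call lost in those comparisons with the marker scores as covariates therefore cannot tell other cells from tolerization or PI. A library counted as one with Y-linked reads from 1000 such reads on. Among libraries without such reads T0 had 1 library and among those with them TAg had 1, which was assumed to vary like the other groups. The 18 pairs of replicates differed by more than sampling noise (chi-square per degree of freedom 2.89 to 12.1). P-values measure the spread between these replicates. Exonic lengths and positions are from the mm9 annotation and promoter sequences from RefSeq (GRCm38.p6).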

Additional observations from a re-analysis of the deposited data

Results flagged for a closer look

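The response to a stimulus differed between tolerized and naive cells, by the interaction term of the edgeR fit, for 5 of the 9 genes with Ag and 3 of 9 with PI. With Ag the difference was -0.88 for Cblb, -0.49 for Ndfip1, -0.52 for Peli1, 1.72 for Dgka and 0.43 for Dgkz on the log2 scale. With PI it was 0.43 for Cblb, 0.74 for Ndfip1 and 0.53 for Peli1. Groups of 3 replicates were not examined for outlying libraries.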

How the results depend on the processing

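Of the 51 called values among 90 (9 genes in 10 comparisons), 0 changed sign under any alternative. No alternative scaled by total count alone, so that these fits cannot show whether a sign depends on the scaling by TMM or by DESeq2. A fold of at least 2 with a mean above 50, and likewise the combined rule of DESeq2 and edgeR with that fold, left 0 of 9 genes called in T0:N0 (3 at an unadjusted p under 0.05 in edgeR, 2 called by DESeq2), 1 in TAg:NAg, 1 in TPI:NPI, 4 in NAg:N0, 3 in TAg:T0, 2 in NPI:N0, 4 in TPI:T0, 1 in the Ag interaction and 0 in the PI interaction (4 at an unadjusted p under 0.05 in edgeR, 3 called by DESeq2). With the marker scores 0 were called in T0:N0 (1 at an unadjusted p under 0.05), 3 in TAg:NAg, 3 in TPI:NPI and 4 in TPI:T0. The calls of Dgkz and Nedd4 in NPI:N0, of Ndfip1 in the Ag interaction and of Cblb in the PI interaction were also lost. Those of Nedd4 in NAg:N0 and in the contrast of PI and Ag differences were gained. In T0:N0 1 was called with no filter on low counts, in libraries without Y-linked reads, without the 2 erythroid-rich libraries (T0 replicate 1 and TAg replicate 3) and with Y-linked read status as a covariate. Leaving out 1 library gave 1 to 4 genes in T0:N0 (1 without N0 replicate 2 or T0 replicate 1, 4 without T0 replicate 3), 4 to 6 in TAg:NAg, 4 to 5 in TPI:NPI, 7 in NAg:N0, 7 to 8 in TAg:T0, 4 to 6 in NPI:N0, 6 to 7 in TPI:T0, 5 in the Ag and 2 to 4 in the PI interaction. The alternatives restricted by Y-linked reads, the one without the erythroid-rich libraries and the contrast of PI and Ag differences were chosen after seeing the data. The calls lost most often were Cbl T0:N0 and TPI:T0, Cblb TAg:NAg and PI interaction, Dgka TPI:NPI and Dgkz NPI:N0. The causes were not tested.

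The sign changes were all of uncalled values. Dgka NPI:N0 became 0.026 with DESeq2 and with its size factors, 0.037 with the marker scores and 0.33 with the Y covariate (adjusted p = 0.0325), and Dgka T0:N0 0.037 with the Y covariate. Dgkz T0:N0 was 0.17 in libraries without Y-linked reads and 0.025 with the Y covariate, and Dgkz TPI:NPI -0.034 with the marker scores. Itch TPI:NPI was 0.011 with DESeq2 and 0.013 with its size factors, and its PI minus Ag contrast 0.0015 and 0.0028. With the marker scores Ndfip1 T0:N0 was -0.20, Nedd4 T0:N0 -0.39, Rnf128 NAg:N0 -0.037 and Rnf128 T0:N0 -0.10. With the Y covariate Ndfip1 T0:N0 was -0.0063 and the Rnf128 Ag interaction -0.030. The Nedd4 Ag interaction was -0.19 without the erythroid-rich libraries, and Rnf128 TAg:T0 -0.28 among libraries with Y-linked reads. Over fits without 1 library, ranges that crossed 0 were -0.071 to 0.0028 for the Cbl PI interaction, -0.083 to 0.10 for Dgka NPI:N0, -0.057 to 0.054 for Itch TPI:NPI, -0.12 to 0.0086 for its PI minus Ag contrast, -0.0072 to 0.13 for Ndfip1 T0:N0, -0.32 to 0.25 for the Nedd4 Ag interaction and -0.029 to 0.024 for Peli1 T0:N0. For Rnf128 they were -0.75 to 0.63 (Ag interaction), -0.33 to 0.53 (NAg:N0), -0.50 to 0.66 (TAg:T0) and -0.32 to 1.04 (PI minus Ag contrast).

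The replicate numbers did not pair the samples (45 same-numbered pairs, r from -0.49 to 0.24, 8 above 0.1). With the replicate block 2 of 9 genes were called in T0:N0, 5 in TAg:NAg, 5 in TPI:NPI, 7 in NAg:N0, 7 in TAg:T0, 6 in NPI:N0 and 7 in TPI:T0, with 5 and 3 in the interactions, and 3421 of all genes in place of 3519 in T0:N0. Depth was lowest for Rnf128, at 5 to 43 reads per library.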
